A study of Mus musculus with 9 samples.

Results

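Mitosis and spindle checkpoint genes were followed in N2A cells depleted of EXOSC3 or DDX1. The set holds 34 listed genes, from cyclin B to the proteins that cut the cell into daughters, and all 34 were found among the 24318 genes of both tables of FPKM (fragments scaled to transcript length and to sequencing depth). N2A is a mouse neuroblastoma line. EXOSC3 is a cap subunit of the RNA exosome, the complex that trims and degrades RNA, and DDX1 is a putative DEAD-box RNA helicase that the study examines as its partner. The 9 RNA-seq libraries fall into 3 groups of 3, which are cells transfected with scramble siRNA (scramble), with EXOSC3 siRNA (siEXOSC3) or with DDX1 siRNA (siDDX1). Besides the titles, the genotype labels name the scramble libraries WT and the others as knockdowns, while a treatment label reads untreated for all 9. All groups went through the same lipid transfection, so the scramble group carries an siRNA too, and the replicates were separately seeded plates of the 1 cell line (whether the siRNA was added before or after a plate was divided into wells is not given in the sources used here). The comparison asked is how the transcripts of mitosis stood after each depletion, each against the scramble libraries of its own table.

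Cells enter mitosis when cyclin B binds the kinase CDK1, and the Polo and Aurora kinases then build the spindle. Kinetochores, protein platforms on the centromeres, catch the microtubules. Until all are attached, the spindle checkpoint holds back CDC20, the activator of the ubiquitin ligase APC/C, and once it is released securin and cyclin B are destroyed and separase parts the chromosomes. Genes of this programme are transcribed late in the cell cycle. Their promoters often hold a CHR element, to which the MuvB complex binds together with B-MYB and FOXM1 in dividing cells or as the repressive DREAM complex in resting ones, and CCAAT boxes bound by the factor NF-Y. In dividing tumour cells these mRNAs are abundant, and their level follows the share of cells in G2 and mitosis. In RNA from whole cultures, fewer cells in mitosis and less RNA per mitotic cell cannot be told apart.

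The promoters of the members are shown first, since the shared elements lie in them. RefSeq windows on GRCm38.p6, from 250 bases before to 50 bases after the start of transcription, were matched by symbol for 29 of the 34 members (32 windows, as 3 members have 2 start sites). Aurkb, Incenp, Spc24, Tpx2 and Kif20a had no window in the table used. Searched on both strands were the CHR letters TTTGAA, a CHR variant TTTAAA that reads the same on either strand, the NF-Y box CCAAT, and the E2F letters TTTCCCGC, TTTCGCGC, TTTGCCGC and TTTGGCGC. Among the members no match of CHR, its variant or CCAAT overlapped a match of another of these 3. The 6 windows printed belong to the members with the largest falls in siEXOSC3 cells that have a window (Aurka, Bub1b, Plk1, Ccnb1 and Cdc20) and to Mki67, the proliferation marker that did not pass the test. They run 5′ to 3′ along the gene, with the motif matches in capitals, at chr2:172370521-172370820 (minus strand), chr2:118597961-118598260 (plus strand), chr7:122159185-122159484 (plus strand), chr13:100786437-100786736 (minus strand), chr4:118437294-118437593 (minus strand) and chr7:135716330-135716629 (minus strand) in that order.
Aurka: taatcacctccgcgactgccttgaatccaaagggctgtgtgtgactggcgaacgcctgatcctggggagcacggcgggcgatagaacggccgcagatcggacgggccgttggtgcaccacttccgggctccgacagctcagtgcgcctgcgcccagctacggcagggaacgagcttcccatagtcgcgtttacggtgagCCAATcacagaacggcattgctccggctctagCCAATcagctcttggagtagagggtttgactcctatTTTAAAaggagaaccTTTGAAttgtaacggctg
Bub1b: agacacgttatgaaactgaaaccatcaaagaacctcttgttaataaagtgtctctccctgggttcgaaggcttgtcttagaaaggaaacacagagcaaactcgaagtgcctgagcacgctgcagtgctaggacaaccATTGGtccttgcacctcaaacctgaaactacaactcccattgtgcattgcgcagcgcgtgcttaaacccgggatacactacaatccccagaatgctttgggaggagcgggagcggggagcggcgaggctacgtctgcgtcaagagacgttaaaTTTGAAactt
Plk1: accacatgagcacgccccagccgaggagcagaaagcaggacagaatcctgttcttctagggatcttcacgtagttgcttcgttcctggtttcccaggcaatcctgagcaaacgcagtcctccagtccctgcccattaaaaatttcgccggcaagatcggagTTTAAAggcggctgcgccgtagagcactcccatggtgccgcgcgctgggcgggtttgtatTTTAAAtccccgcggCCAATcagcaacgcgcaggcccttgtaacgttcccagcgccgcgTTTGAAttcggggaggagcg
Ccnb1: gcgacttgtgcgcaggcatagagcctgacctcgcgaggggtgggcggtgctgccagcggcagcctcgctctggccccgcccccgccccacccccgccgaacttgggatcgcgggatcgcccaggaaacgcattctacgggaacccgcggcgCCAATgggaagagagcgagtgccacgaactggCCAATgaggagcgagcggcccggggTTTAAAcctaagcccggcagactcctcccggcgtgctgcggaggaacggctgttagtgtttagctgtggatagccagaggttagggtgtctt
Cdc20: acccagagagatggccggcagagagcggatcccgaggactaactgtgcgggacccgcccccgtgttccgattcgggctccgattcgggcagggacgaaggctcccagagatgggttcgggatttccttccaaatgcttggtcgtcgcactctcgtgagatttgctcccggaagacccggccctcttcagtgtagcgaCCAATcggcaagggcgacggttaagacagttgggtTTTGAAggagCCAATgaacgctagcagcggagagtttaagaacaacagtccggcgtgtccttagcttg
Mki67: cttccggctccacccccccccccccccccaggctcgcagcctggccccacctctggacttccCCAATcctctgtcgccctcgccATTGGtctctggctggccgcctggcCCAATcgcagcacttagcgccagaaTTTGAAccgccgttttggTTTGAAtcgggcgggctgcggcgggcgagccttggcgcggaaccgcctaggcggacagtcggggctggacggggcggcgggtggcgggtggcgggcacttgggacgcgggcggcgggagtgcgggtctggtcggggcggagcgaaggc

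The CHR letters stood in the windows of 22 of 29 members (75.9%), against 20.2% of the 27025 genes of the promoter table and 13.6% of the 8595 genes with a window that were tested in siEXOSC3 cells. CCAAT was present in 22 of 29 (75.9%), against 41.1% of all genes and 43.6% of the tested genes. Both stood together in 19 of 29 (65.5%), against 7.97% and 5.64%. The variant TTTAAA was found in 9 of 29 (31.0%), against 14.9% and 10.7%, and the Ccnb1 window, printed above, holds it without the letters TTTGAA. The E2F letters were found in 1 of 29 (3.45%), against 2.6% and 4.91%. Most matches lay near the start site, as 23 of 32 CHR matches began within 50 bases of it and 54 of 55 CCAAT matches began upstream of it, with a match counted once for each window that holds it. Between the members that fell in siEXOSC3 cells and those that did not pass, the motifs were spread as follows, with no test. This split rests on the threshold. Those that did not pass include Cdk1, Ccnb2, Ttk and Bub3, which were lower in all siEXOSC3 libraries, with limma adjusted p-values between 0.0549 and 0.0695. CHR was present in 16 of the 23 members with a window that fell and in 6 of the 6 with a window that did not pass, and CCAAT was present in the same numbers. At least 2 CCAAT boxes stood in 9 of the 23 and in 6 of the 6, while TTTAAA stood in 9 of the 23 and in 0 of the 6. In Mki67 there were 2 CHR and 3 CCAAT matches.

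**Figure D1:**
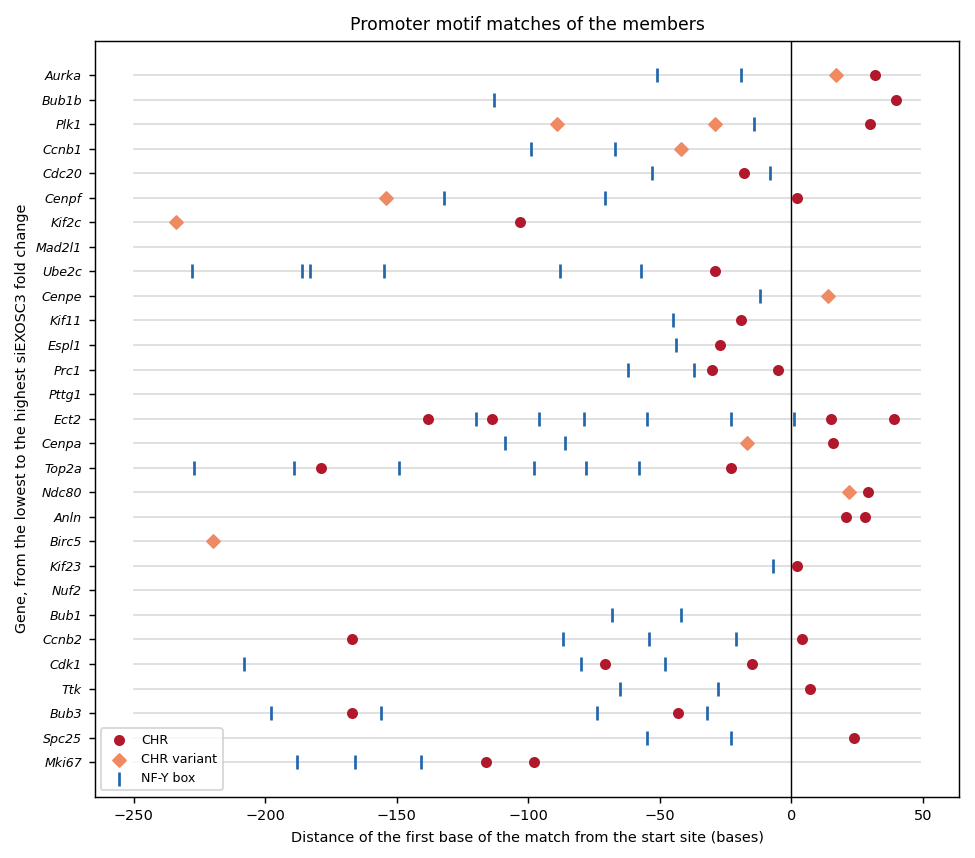
Matches of 3 promoter motifs in the 29 members with a RefSeq window, ordered from the lowest siEXOSC3 log2 fold change at the top; the x axis is the distance in bases of the first base of a match from the start site (matches from 2 start sites are drawn together), and each horizontal line is a window. CHR matches (circles) gather around the start site and NF-Y boxes (bars) lie before it,; Mad2l1, Pttg1 and Nuf2 hold none of the 3 motifs.

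The knockdowns and the cell line were checked before the members. Exosc3 was left at 15.5, 17.4 and 13.6% of the scramble mean in siEXOSC3 replicates 1, 2 and 3, and Ddx1 at 22.4, 22.9 and 27.8% in the siDDX1 replicates (limma adjusted p = 1.11e-05 and 9.53e-05). Of 11 sympathetic neuroblastoma markers 9 had at least 1 FPKM in scramble, and their summed level was 275 to 325 FPKM in the scramble libraries and 299 to 384 FPKM in the siEXOSC3 libraries. In siEXOSC3 cells 4 of them increased, Dbh (0.88, limma adjusted p = 0.00164, first value the log2 fold change), Mycn (0.86, limma adjusted p = 0.00299), Isl1 (0.68, limma adjusted p = 0.00272) and Phox2a (0.59, limma adjusted p = 0.00682), while 0 of 9 decreased (1 was lower at an unadjusted p-value under 0.05), and 0 of 9 passed with limma in siDDX1 cells (1 rose and 1 fell at an unadjusted p-value under 0.05). Over all genes tested 16.7% increased and 15.7% decreased in siEXOSC3 cells, and 5.61 and 5.03% in siDDX1 cells. The summed levels of 6 fibroblast, 5 leukocyte and 6 glial markers lay between 0.483 and 3.42 FPKM in all libraries. The 7 endothelial and epithelial markers summed to 4.14 to 4.76 FPKM in scramble and 6.43 to 9.43 FPKM in siEXOSC3 cells, and to 5.14 to 5.95 FPKM in siDDX1 cells against 4.11 to 4.70 FPKM in the scramble libraries of that table. The 1 of these 7 that entered the test increased in siEXOSC3 cells and did not pass in siDDX1 cells. Whether these moves have a part in the results below was not tested. FPKM holds no read numbers, so the absolute depth is unknown, and the relative depth of the libraries, read from the smallest steps of low genes, lay between 0.827 and 1.204 times that of scramble replicate 1.

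In siEXOSC3 cells the mitotic transcripts were lower together. All 34 members had a mean FPKM of at least 1 and entered the test, 27 decreased and 0 increased (limma, adjusted p-value under 0.05), where 15.7% of the 11242 genes tested decreased and 16.7% increased. All 34 log2 fold changes were below 0, whereas 51.9% of those of all genes tested were. The median over the members was -0.42 on the log2 scale, or 74.7% of the scramble mean, and the median of all genes was -0.01. The member with the lowest share of scramble was Aurka with 53.4% and the one with the highest was Spc24 with 97.9%. In 31 members all 3 siEXOSC3 libraries lay below all 3 scramble libraries, which was so for 25.9% of all genes tested. The other 3, Spc24, Spc25 and Mki67, overlapped. Of the 7 members that did not pass, Cdk1, Ccnb2, Ttk and Bub3 had limma adjusted p-values between 0.0549 and 0.0695, and at an unadjusted limma p-value under 0.05 there were 31 members lower and 0 higher.

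The count of 27 moved with the libraries used, and so did the share of all genes that decreased. Without scramble replicate 1 it was 14 (5.17% of all genes tested), without scramble replicate 2 it was 15 (8.27%) and without siEXOSC3 replicate 1 it was 15 (7.73%). It was 19 (7.15%) without scramble replicate 3, 25 (13.6%) without siEXOSC3 replicate 3 and 32 (22.3%) without siEXOSC3 replicate 2. Members called in every one of the 15 alternative fits (9 other settings and 6 fits without 1 library) were 14, namely Bub1b, Aurka, Aurkb, Espl1, Kif20a, Cenpf, Anln, Plk1, Tpx2, Cdc20, Cenpe, Ccnb1, Pttg1 and Kif2c. The sign of the log2 fold change was the same in every fit for 33 of the 34 members, the exception being Spc24.

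**Figure D2:**
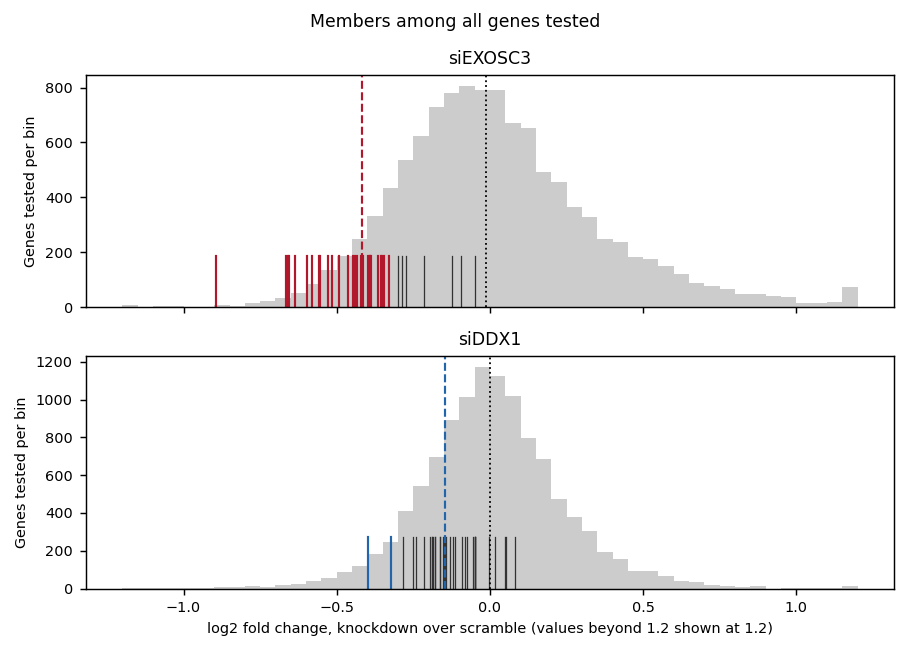
Log2 fold changes of all genes tested (grey bars, 11242 in siEXOSC3 and 11104 in siDDX1 cells, in bins of width 0.05) with the 34 members as vertical ticks, coloured where the limma adjusted p-value was under 0.05; dotted lines mark the median of all genes and dashed lines that of the members. The members lie in the lower part of the siEXOSC3 distribution (median -0.42), and are shifted less in siDDX1 cells (median -0.15).

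After depletion of DDX1 few of the genes passed the test. Of the 34 members 2 decreased, Kif20a and Aurka, and 0 increased, where 5.03% of the 11104 genes tested decreased and 5.61% increased. The median log2 fold change was -0.15, or 90.7% of scramble, against -5.87e-04 for all genes (without siDDX1 replicate 1 the median of the members was -0.065), and the shares of scramble ran from 75.2 to 106%. Signs were negative for 30 members and positive for Cdk1, Incenp, Cdc20 and Top2a. All 3 siDDX1 libraries lay below all 3 scramble libraries in 14 members, compared with 17.8% of all genes tested, and at an unadjusted limma p-value under 0.05 there were 11 members lower and 0 higher. The count of 2 turned on single libraries, and the share of all genes that decreased moved with it. It was 0 without scramble replicate 1 (0.522% of all genes tested), 0 without scramble replicate 3 (0.586%), 1 without siDDX1 replicate 2 (1.56%) and 10 without siDDX1 replicate 3 (15.4%), of which 3 were genes of the central spindle and cytokinesis, 2 each of mitotic entry and the checkpoint, and 1 each of the passenger complex, anaphase onset and the kinetochore. When the libraries were scaled to their FPKM total without Rmrp, a small RNA gene with a large share of the total, 12 members and 14.5% of all genes decreased, with the median of all genes itself moved to -0.15 and that of the members to -0.31. Both knockdowns were set against the same scramble libraries, in tables scaled separately, and a difference between siEXOSC3 and siDDX1 cells was not tested.

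**Figure D3:**
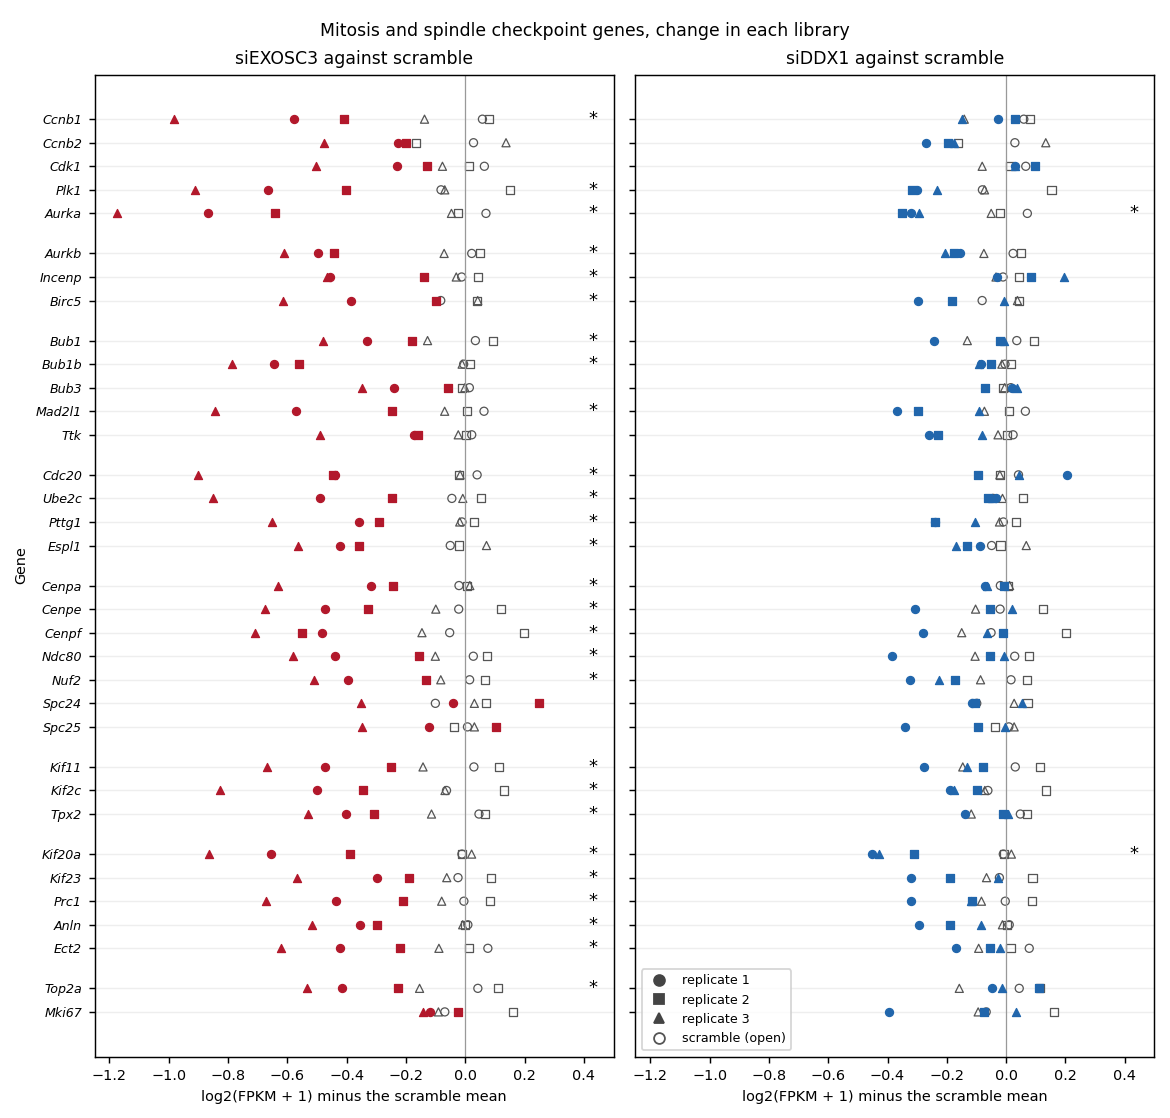
Change of each member in each library, as log2(FPKM + 1) minus the mean of the 3 scramble libraries of the same table, grouped by role in the order of the text; filled symbols are knockdown libraries, open symbols scramble libraries, symbol shapes replicate numbers, and asterisks members with a limma adjusted p-value under 0.05. Nearly all siEXOSC3 symbols lie left of the scramble symbols and replicate 3 is the lowest in 34 of 34 members, while in siDDX1 cells asterisks stand at Aurka and Kif20a.

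Among the cyclins and kinases of mitotic entry 3 of 5 fell in siEXOSC3 cells, and 5 of 5 without siEXOSC3 replicate 2. Aurka encodes the Aurora kinase of centrosomes and spindle poles and maps to chromosome 2 from 172181690 to 172196035, minus strand (NCBIM37, the assembly of mm9, as for all gene positions given here). It measured 26.6, 31.2 and 21.3 FPKM in siEXOSC3 replicates 1, 2 and 3 and 51.8, 48.5 and 47.7 FPKM in the scramble replicates. The groups lay far apart, which left 53.4% ± 10.1 (SD, n = 3) of the scramble mean (log2 fold change -0.90, SE 0.123, limma adjusted p = 0.00242). In siDDX1 cells it measured 38.9, 38.1 and 39.7 FPKM against 51.4, 48.2 and 47.2 FPKM in the same scramble libraries as scaled in that table. Here too no values overlapped, with 79.5% ± 1.59 (SD, n = 3) of the scramble mean (log2 fold change -0.32, SE 0.0583, limma adjusted p = 0.0152). This call was lost without siDDX1 replicate 2, scramble replicate 1 or scramble replicate 3, with limma adjusted p-values up to 0.0858 over the alternatives.

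Plk1, the Polo kinase of entry, spindle assembly and cytokinesis, maps to chromosome 7 from 129302951 to 129313389, plus strand. Its levels were 23.3, 28.1 and 19.5 FPKM in siEXOSC3 and 35.4, 41.7 and 35.7 FPKM in scramble cells. All siEXOSC3 values were the lower ones (log2 fold change -0.66, SE 0.127, limma adjusted p = 0.00742). In siDDX1 cells the values of 29.96, 29.6 and 31.5 FPKM were also below the 3 scramble values of 35.1, 41.4 and 35.3 FPKM. The difference did not pass (log2 fold change -0.28, 95% confidence interval -0.46 to -0.11, limma adjusted p = 0.0517), although 5 of the 15 alternative fits called it. Ccnb1 encodes cyclin B1, the CDK1 partner destroyed at anaphase, and maps to chromosome 13 from 101548605 to 101556525, minus strand. Its siEXOSC3 values were 116, 130.1 and 87.1 FPKM and its scramble values 180.3, 183 and 157 FPKM, with replicate 3 the lowest in either group. It fell to 63.9% ± 12.6 (SD, n = 3) of the scramble mean (log2 fold change -0.66, SE 0.138, limma adjusted p = 0.0101). Depletion of DDX1 gave overlapping values, at 169, 175 and 155 FPKM against 179, 182 and 156 FPKM (log2 fold change -0.05, SE 0.0815, limma adjusted p = 0.735).

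Cdk1, the kinase that drives entry, maps to chromosome 10 from 68799383 to 68815686, minus strand. It stood at 60.4, 64.8 and 49.8 FPKM in siEXOSC3 cells, below the scramble values of 74.3, 71.6 and 67.2 FPKM. The difference missed the threshold (log2 fold change -0.29, 95% confidence interval -0.51 to -0.06, limma adjusted p = 0.0549), although 4 of the 15 alternative fits called it. In siDDX1 cells Cdk1 was at 71.9, 75.2 and 71.9 FPKM against 73.7, 71.1 and 66.5 FPKM (log2 fold change 0.05, 95% confidence interval -0.09 to 0.19, limma adjusted p = 0.595). Ccnb2, the other B-type cyclin of the set, had a log2 fold change of -0.30 (limma adjusted p = 0.0553) in siEXOSC3 and -0.21 (limma adjusted p = 0.131) in siDDX1 cells. The kinase subunit thus stood at 82.1% of scramble where its cyclin partner Ccnb1 stood at 63.9%, a difference between genes that was not tested.

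**Figure D4:**
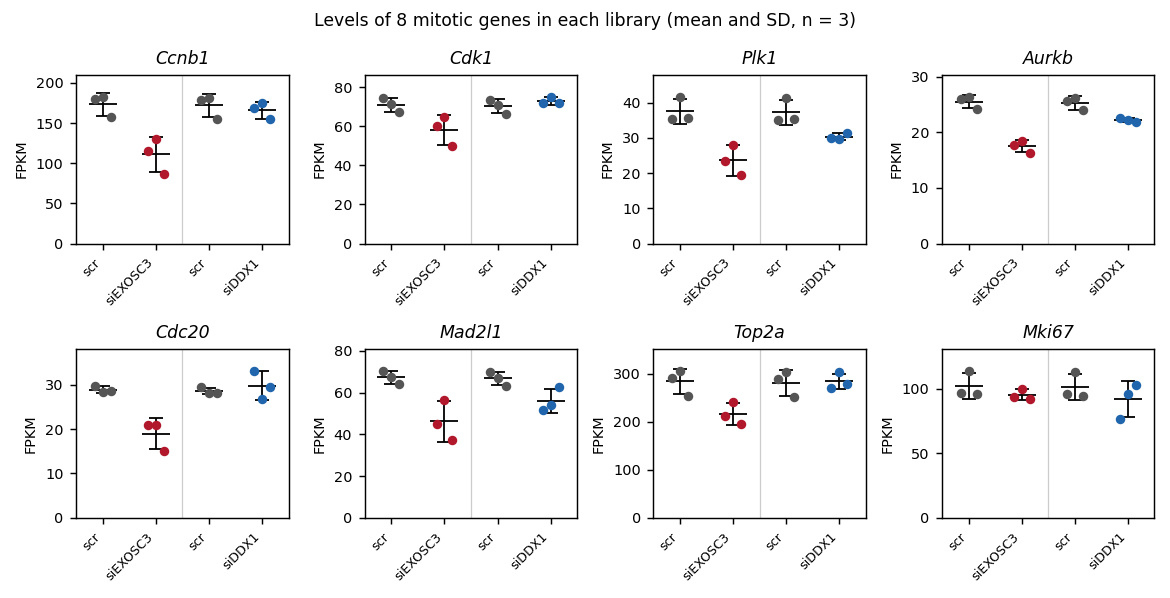
FPKM of 8 members in each library, with the scramble libraries (scr, grey) drawn as scaled in the table of each knockdown; points are libraries in the order of replicates 1, 2 and 3, horizontal bars are means and error bars SD (n = 3), and every y axis starts at 0. Ccnb1, Plk1, Aurkb, Cdc20, Mad2l1 and Top2a decreased in siEXOSC3 cells (limma adjusted p-values between 0.00265 and 0.0202), Cdk1 and Mki67 did not pass, and in siDDX1 cells 0 of the 8 passed (3 were lower at an unadjusted limma p-value under 0.05).

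All 3 members of the chromosomal passenger complex, which corrects wrong attachments and later organises cytokinesis, fell in siEXOSC3 cells. Without siEXOSC3 replicate 1 or any 1 of the scramble replicates 1 of 3 did. Aurkb, its kinase, on chromosome 11 from 68859149 to 68865166, plus strand, measured 17.8, 18.5 and 16.3 FPKM against 25.9, 26.4 and 24.2 FPKM in scramble cells. The spread within each group was small beside the gap, and 68.8% ± 4.33 (SD, n = 3) of the scramble mean remained (log2 fold change -0.52, SE 0.0728, limma adjusted p = 0.00265). In siDDX1 cells Aurkb measured 22.6, 22.2 and 21.8 FPKM against 25.7, 26.2 and 23.9 FPKM, again without overlap (log2 fold change -0.18, SE 0.0614, limma adjusted p = 0.0963). Incenp, the scaffold of the complex, had log2 fold changes of -0.35 (limma adjusted p = 0.0230) in siEXOSC3 and 0.08 (limma adjusted p = 0.463) in siDDX1 cells. For Birc5, which encodes survivin, the values were -0.37 (limma adjusted p = 0.0479) and -0.16 (limma adjusted p = 0.230). Its siEXOSC3 call lay close to the threshold and was kept in 5 of 15 alternative fits.

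Of the 5 spindle checkpoint genes 3 fell in siEXOSC3 cells, and Bub1b had the smallest limma adjusted p-value of all members. The count was 1 of 5 without siEXOSC3 replicate 1, scramble replicate 1 or scramble replicate 2, and 5 of 5 without siEXOSC3 replicate 2. Bub1b encodes BUBR1, a part of the mitotic checkpoint complex that inhibits CDC20, and maps to chromosome 2 from 118423947 to 118467328, plus strand. Its siEXOSC3 levels were 30.2, 32.1 and 27.2 FPKM and its scramble levels 47.6, 48.3 and 47.4 FPKM. The scramble values were nearly equal to each other and all siEXOSC3 values far below them, at 62.5% ± 5.11 (SD, n = 3) of the scramble mean (log2 fold change -0.66, SE 0.0729, limma adjusted p = 0.00106). In siDDX1 cells Bub1b stood at 44.6, 45.7 and 44.4 FPKM against 47.2, 47.9 and 46.8 FPKM, a small gap that did not pass (log2 fold change -0.07, 95% confidence interval -0.19 to 0.04, limma adjusted p = 0.366). Mad2l1 encodes MAD2, which binds CDC20 in the same complex, and maps to chromosome 6 from 66485384 to 66491027, plus strand. It measured 44.99, 56.6 and 37.1 FPKM in siEXOSC3 and 70.4, 67.6 and 64.1 FPKM in scramble cells, with a wide spread among the siEXOSC3 libraries (log2 fold change -0.55, SE 0.134, limma adjusted p = 0.0165). The siDDX1 values of 51.5, 54.1 and 62.5 FPKM lay below 69.8, 67.1 and 63.3 FPKM in scramble without passing (log2 fold change -0.25, 95% confidence interval -0.44 to -0.07, limma adjusted p = 0.0819). Bub1, the checkpoint kinase that marks the kinetochore, had a log2 fold change of -0.33 (limma adjusted p = 0.0283) in siEXOSC3 cells. Ttk, the kinase MPS1 that starts the signal, had -0.27 (limma adjusted p = 0.0574), and Bub3, the partner of BUB1 and BUBR1, had -0.22 (limma adjusted p = 0.0695). After depletion of DDX1 the log2 fold changes of Bub1, Ttk and Bub3 were -0.09, -0.19 and -0.00, with limma adjusted p-values of 0.519, 0.106 and 0.966.

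The 4 genes of anaphase onset all fell in siEXOSC3 cells, and 0 passed with limma in siDDX1 cells, where 1 was lower at an unadjusted p-value under 0.05. The siEXOSC3 count was 3 of 4 without siEXOSC3 replicate 1 or any 1 of the scramble replicates. Cdc20, the APC/C activator that the checkpoint holds back, maps to chromosome 4 from 118105506 to 118109957, minus strand. It was measured at 21.02, 20.95 and 14.98 FPKM in siEXOSC3 cells, all under the scramble values of 29.7, 28.4 and 28.5 FPKM, and replicate 3 was well below the other 2 siEXOSC3 libraries (log2 fold change -0.60, SE 0.121, limma adjusted p = 0.00902). In siDDX1 cells the Cdc20 values of 33.1, 26.7 and 29.5 FPKM surrounded the scramble values of 29.5, 28.2 and 28.2 FPKM (log2 fold change 0.05, SE 0.0814, limma adjusted p = 0.718). Espl1, which encodes separase, the protease that cuts cohesin, maps to chromosome 15 from 102126724 to 102154787, plus strand. Its levels were 13.8, 14.4 and 12.4 FPKM in siEXOSC3 and 18.1, 18.5 and 19.8 FPKM in scramble cells (log2 fold change -0.45, SE 0.0779, limma adjusted p = 0.00529). In siDDX1 cells it stood at 17.5, 16.9 and 16.4 FPKM against 17.96, 18.4 and 19.6 FPKM, lower in 3 of 3 libraries but short of the threshold (log2 fold change -0.13, SE 0.0641, limma adjusted p = 0.213). Ube2c, the ubiquitin-conjugating enzyme of the APC/C, had log2 fold changes of -0.53 (limma adjusted p = 0.0197) and -0.05 (limma adjusted p = 0.607) in siEXOSC3 and siDDX1 cells. Its siEXOSC3 call was made in 10 of 15 alternative fits, and lost without siEXOSC3 replicate 1, any 1 of the scramble replicates or the filter on FPKM. Pttg1, which encodes securin, the inhibitor of separase, had -0.43 (limma adjusted p = 0.0114) and -0.19 (limma adjusted p = 0.0753). Separase and its inhibitor were thus at 71.98 and 74.1% of their scramble means in siEXOSC3 cells.

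At the centromere and kinetochore 5 of 7 members fell in siEXOSC3 cells. The count was 3 without siEXOSC3 replicate 1 and 2 without any 1 of the scramble replicates. Cenpf, a large protein of the outer kinetochore, maps to chromosome 1 from 191464478 to 191511965, minus strand. It measured 41.4, 39.5 and 35.2 FPKM in siEXOSC3 and 56.1, 66.99 and 52.5 FPKM in scramble cells, where scramble replicate 2 was the highest (log2 fold change -0.58, SE 0.101, limma adjusted p = 0.00533). Cenpe, the kinetochore motor that moves chromosomes to the equator, maps to chromosome 3 from 134875527 to 134936504, plus strand. Its values were 19.1, 21.2 and 16.5 FPKM against 26.5, 29.4 and 25.1 FPKM, without overlap (log2 fold change -0.49, SE 0.101, limma adjusted p = 0.00922). In siDDX1 cells Cenpf stood at 47.3, 57.2 and 55.1 FPKM against 55.7, 66.5 and 51.9 FPKM (log2 fold change -0.12, SE 0.105, limma adjusted p = 0.477), and Cenpe overlapped likewise at 21.4, 25.7 and 27.1 FPKM against 26.3, 29.2 and 24.8 FPKM (log2 fold change -0.11, SE 0.0989, limma adjusted p = 0.472). Cenpa, the histone variant that defines the centromere, had a log2 fold change of -0.40 (limma adjusted p = 0.0196) in siEXOSC3 cells. The NDC80 complex, which binds the microtubule, is built from a dimer of NDC80 and NUF2 that reaches the microtubule and a dimer of SPC24 and SPC25 at the inner end. Ndc80 and Nuf2 fell, with log2 fold changes of -0.39 (limma adjusted p = 0.0273) and -0.35 (limma adjusted p = 0.0306). Without 1 library the Ndc80 call was lost in 4 of 6 fits and the Nuf2 call in 5 of 6. Spc24 and Spc25 did not pass, with -0.05 (limma adjusted p = 0.808) and -0.12 (limma adjusted p = 0.397), and their siEXOSC3 values overlapped those of scramble, with replicate 2 the highest and replicate 3 the lowest of the 6 libraries. The 95% confidence intervals, -0.36 to 0.27 for Spc24 and -0.37 to 0.12 for Spc25, include the log2 fold change of Nuf2 but not that of Ndc80, and the difference between the dimers was not tested. In siDDX1 cells these 5 genes had log2 fold changes from -0.24 (Nuf2) to -0.05 (Cenpa), with limma adjusted p-values from 0.0589 to 0.660.

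All 3 spindle motors and assembly factors fell in siEXOSC3 cells. The count was 2 of 3 without siEXOSC3 replicate 1, scramble replicate 1 or scramble replicate 2, fits in which the Kif11 call was lost. Tpx2, which activates Aurora A and nucleates microtubules near chromosomes, maps to chromosome 2 from 152673700 to 152721057, plus strand. It was at 53.8, 57.4 and 49.1 FPKM in siEXOSC3 and 73.7, 74.8 and 65.9 FPKM in scramble cells, with no overlap (log2 fold change -0.41, SE 0.0811, limma adjusted p = 0.00797). In siDDX1 cells it stood at 64.2, 70.1 and 70.97 FPKM against 73.1, 74.2 and 65.1 FPKM, overlapping scramble (log2 fold change -0.05, SE 0.0723, limma adjusted p = 0.701). Aurka and its activator Tpx2 thus kept 53.4 and 74.8% of their scramble levels in siEXOSC3 cells. Kif11, the motor that pushes the spindle poles apart, had a log2 fold change of -0.46 (limma adjusted p = 0.0169). Kif2c, a kinesin that takes microtubules apart at centromeres, had -0.56 (limma adjusted p = 0.0118). In siDDX1 cells Kif11 and Kif2c had -0.16 (limma adjusted p = 0.238) and -0.15 (limma adjusted p = 0.203).

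The 5 genes of the central spindle and cytokinesis all fell in siEXOSC3 cells, and 1 of them, Kif20a, also fell in siDDX1 cells. The siEXOSC3 count was 2 without siEXOSC3 replicate 1, scramble replicate 1 or scramble replicate 2, and 3 without scramble replicate 3. Kif20a encodes the kinesin that carries the passenger complex to the central spindle. It measured 19.3, 23.5 and 16.6 FPKM in siEXOSC3 and 30.8, 30.8 and 31.5 FPKM in scramble cells, where the scramble values were nearly equal (log2 fold change -0.64, SE 0.111, limma adjusted p = 0.00530). In siDDX1 cells it measured 22.2, 24.6 and 22.6 FPKM against 30.5, 30.6 and 31.1 FPKM, the largest fall of a member there, to 75.2% ± 4.13 (SD, n = 3) of the scramble mean (log2 fold change -0.40, SE 0.0617, limma adjusted p = 0.01005). That call was lost without scramble replicate 1 and without scramble replicate 3, with limma adjusted p-values up to 0.0610 over the alternatives. Exons of Kif20a overlap those of Cdc23 on the opposite strand over 32.3% of its exonic bases, and the libraries do not keep the strand. Cdc23, an APC/C subunit, stood at 90.8% of scramble in siEXOSC3 and 95.5% in siDDX1 cells (log2 fold changes -0.13, limma adjusted p = 0.147, and -0.06, limma adjusted p = 0.529).

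Anln encodes anillin, the scaffold of the contractile ring, and maps to chromosome 9 from 22135658 to 22193650, minus strand. Its values were 25.9, 27.00 and 23.1 FPKM in siEXOSC3 and 33.7, 33.4 and 33.2 FPKM in scramble cells, with little spread in either group (log2 fold change -0.39, SE 0.0729, limma adjusted p = 0.00673). In siDDX1 cells they were 26.8, 28.9 and 31.2 FPKM against 33.4, 33.2 and 32.9 FPKM, lower in 3 of 3 libraries without passing (log2 fold change -0.19, SE 0.0675, limma adjusted p = 0.104). Prc1, which bundles the antiparallel microtubules of the central spindle, had a log2 fold change of -0.44 (limma adjusted p = 0.0200) in siEXOSC3 cells. Kif23, the motor of the centralspindlin complex, had -0.35 (limma adjusted p = 0.0296), and Ect2, the exchange factor that switches on RhoA at the division plane, had -0.42 (limma adjusted p = 0.0169). In siDDX1 cells Prc1, Kif23 and Ect2 had log2 fold changes of -0.18, -0.18 and -0.08, with limma adjusted p-values of 0.152, 0.199 and 0.454.

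Of the 2 genes of the mitotic chromosome Top2a fell in siEXOSC3 cells and Mki67 did not pass, and the difference between them was not tested. The Top2a call was lost without siEXOSC3 replicate 1, scramble replicate 1 or scramble replicate 2. Top2a, the topoisomerase that untangles chromatids and the most abundant member in FPKM, maps to chromosome 11 from 98854257 to 98885503, minus strand. It was measured at 213, 242 and 195 FPKM in siEXOSC3 and 292, 307 and 255 FPKM in scramble cells, all siEXOSC3 values being the lower ones (log2 fold change -0.39, SE 0.101, limma adjusted p = 0.0202). In siDDX1 cells the values of 272, 303 and 279 FPKM overlapped 289.8, 304 and 252 FPKM (log2 fold change 0.02, 95% confidence interval -0.18 to 0.22, limma adjusted p = 0.921). Mki67 encodes Ki-67, the protein coating mitotic chromosomes that is used to stain dividing cells, and maps to chromosome 7 from 142881471 to 142908062, minus strand. Its siEXOSC3 values of 93.7, 99.99 and 92.1 FPKM overlapped the scramble values of 96.96, 114 and 95.5 FPKM, so that 93.3% ± 4.08 (SD, n = 3) of scramble remained (a log2 fold change of -0.10, 95% confidence interval -0.28 to 0.09, limma adjusted p = 0.392). It was called in 0 of the 15 alternative fits. In siDDX1 cells Mki67 was at 76.5, 95.7 and 103 FPKM against 96.2, 113 and 94.4 FPKM, with replicate 1 the lowest and the others within the scramble range (log2 fold change -0.14, SE 0.117, limma adjusted p = 0.438).

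The members moved together within the libraries too. Replicate 3 was the lowest siEXOSC3 library in 34 of 34 members and replicate 2 the highest in 32 of 34, whereas over all genes tested replicate 3 was the lowest in 42.9% and replicate 2 the highest in 40.3%. The median change of the members against the scramble mean was -0.42, -0.24 and -0.61 on the log2 scale in siEXOSC3 replicates 1, 2 and 3, beside medians of -0.01, -0.01 and -0.02 over all genes. In the order of these medians, from replicate 3 to replicate 1 to replicate 2, the Exosc3 transcript left was 13.6, 15.5 and 17.4% of scramble. In siDDX1 cells the members' medians were -0.25, -0.09 and -0.07, and replicate 1 was the lowest library in 24 of 34 members (33.1% of all genes), with 22.4% of Ddx1 left. With 3 libraries a relation between the target left and the members was not tested. The scramble libraries had member medians of 0.01, 0.05 and -0.07 in the siEXOSC3 table, replicate 3 being the lowest in 23 members (37.0% of all genes) and replicate 2 the highest in 20 (34.3%).

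Other genes of the cell cycle were read from 9 lists, drawn up by function but with earlier results of these data known. In siEXOSC3 cells 78 of 147 tested genes of the 6 further mitotic lists decreased and 1 increased, with a median log2 fold change of -0.30 (15.7% of all genes decreased). In siDDX1 cells 7 of 147 decreased, where 5.03% of all genes did, and 0 increased, with a median of -0.09 (limma, 36 lower and 2 higher at an unadjusted p-value under 0.05). The siEXOSC3 count was 29 without scramble replicate 1, 38 without siEXOSC3 replicate 1, 41 without scramble replicate 2 or 3 and 102 without siEXOSC3 replicate 2, fits in which 5.17, 7.73, 8.27, 7.15 and 22.3% of all genes decreased. The siDDX1 count was 0 without scramble replicate 1, 1 without scramble replicate 3, 2 without scramble replicate 2 or siDDX1 replicate 1 or 2, and 47 without siDDX1 replicate 3, where 15.4% of all genes decreased. Scaling to the FPKM total without Rmrp gave 25 in siDDX1 cells, with 14.5% of all genes. Of other kinetochore and checkpoint genes 23 of 39 fell in siEXOSC3 cells, with Hjurp, the chaperone that loads CENP-A, at a log2 fold change of -0.64, limma adjusted p = 0.00297, and Ska3, of the complex that couples kinetochores to microtubules, at -0.62, limma adjusted p = 0.00428. Their count was 12 without siEXOSC3 replicate 1, 7 without scramble replicate 1 and 10 without scramble replicate 2 or 3. In siDDX1 cells 5 of these 39 fell, with Cenpu at -0.55, limma adjusted p = 0.0176, and Mis12, of the complex that joins kinetochore and centromere, at -0.37, limma adjusted p = 0.0130. That count was 0 without scramble replicate 1 or 3, 1 without scramble replicate 2 or siDDX1 replicate 1 or 2, and 20 without siDDX1 replicate 3. Of the entry kinases, phosphatases and cyclin A 14 of 18 fell in siEXOSC3 cells, with Gtse1, a microtubule-binding protein of G2, at -0.70, limma adjusted p = 0.00304, and Cks1b, a small CDK-binding subunit, at -0.63, limma adjusted p = 0.0107. These were 8 without siEXOSC3 replicate 1 or scramble replicate 1 and 9 without scramble replicate 2. Arpp19, whose product inhibits the phosphatase PP2A-B55 once the kinase Greatwall has phosphorylated it, was the 1 that rose (0.23, limma adjusted p = 0.0239), and is named after its value was seen. Its call was lost without siEXOSC3 replicate 1 or any 1 of the scramble replicates, with the replicate block and with the scaling without Rmrp. In siDDX1 cells 2 of 18 fell, Mastl, which encodes Greatwall (-0.52, limma adjusted p = 0.00822), and Ccna2, cyclin A2 (-0.29, limma adjusted p = 0.0214), a count that was 0 without scramble replicate 1, 1 without scramble replicate 2 or 3 or siDDX1 replicate 1 or 2, and 5 without siDDX1 replicate 3.

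The counts of the next lists stand beside 15.7% of all genes tested that decreased in siEXOSC3 cells and 5.03% in siDDX1 cells. Other spindle and cytokinesis genes fell in 22 of 41 cases in siEXOSC3 cells, with Depdc1a at -0.67, limma adjusted p = 0.00942, and Ckap2l, a spindle protein, at -0.59, limma adjusted p = 0.0125. Subunits and the inhibitor of the APC/C fell in 6 of 17, with Ube2s, the enzyme that elongates its ubiquitin chains, at -0.44, limma adjusted p = 0.00980, and Anapc1, its largest subunit, at -0.41, limma adjusted p = 0.00332. Condensin and cohesin genes fell in 8 of 19, with Stag1, a cohesin subunit, at -0.62, limma adjusted p = 0.0101, and Ncaph, a condensin subunit, at -0.47, limma adjusted p = 0.00704. The counts of these 3 lists were 12, 2 and 4 without siEXOSC3 replicate 1, 9, 2 and 3 without scramble replicate 1, 13, 3 and 3 without scramble replicate 2, and 12, 2 and 5 without scramble replicate 3. The share of all genes that decreased in these fits was 7.73, 5.17, 8.27 and 7.15%, in that order. In siDDX1 cells 0 genes of these 3 lists passed with limma, where 9, 3 and 5 were lower and 1, 0 and 0 higher at an unadjusted p-value under 0.05. Without siDDX1 replicate 3 there were 11, 2 and 5 that decreased, where 15.4% of all genes did. Of the regulators of the programme 5 of 13 fell in siEXOSC3 cells, 0 of 13 without siEXOSC3 replicate 1 or scramble replicate 1, 2 without scramble replicate 3 and 3 without scramble replicate 2. In siDDX1 cells 0 of 13 passed with limma (0 at an unadjusted p-value under 0.05), and 4 decreased without siDDX1 replicate 3. Foxm1, the transcription factor of late cell cycle genes, was measured at 14.2, 16.7 and 11.6 FPKM in siEXOSC3 and 20.2, 18.4 and 20.9 FPKM in scramble cells (log2 fold change -0.47, limma adjusted p = 0.0192). Lin9, a MuvB subunit, was measured at 12.03, 15.1 and 12.1 FPKM against 17.9, 18.3 and 17.3 FPKM (log2 fold change -0.43, limma adjusted p = 0.0118). In both genes the siEXOSC3 values lay below all scramble values. With the replicate block the siEXOSC3 counts were 2 for the APC/C, 4 for condensin and cohesin and 3 for the regulators, where 9.42% of all genes decreased.

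**Figure D5:**
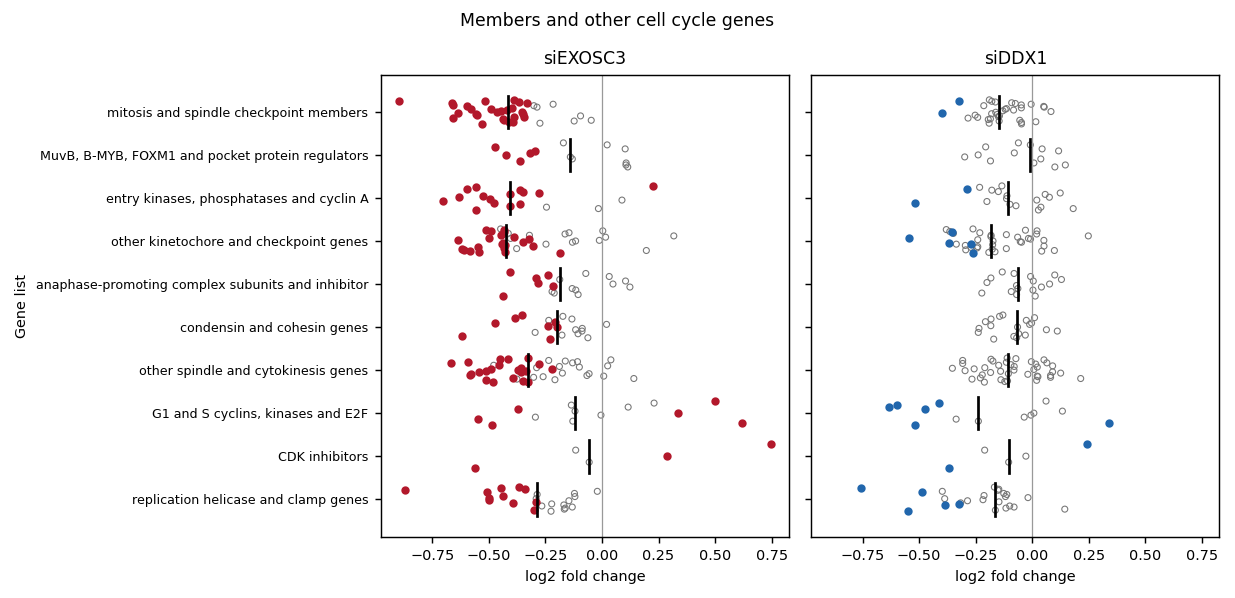
Log2 fold changes of the 34 members (top row) and of the tested genes of 9 other cell cycle lists in each knockdown; each point is a gene, filled where the limma adjusted p-value was under 0.05, and black bars are medians. In siEXOSC3 cells the medians of the members (-0.42), the other kinetochore genes (-0.43) and the entry genes (-0.41) lie lowest, and in siDDX1 cells the G1 and S genes have the lowest median (-0.24).

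Genes of the earlier phases were read in the same way. Of the G1 and S cyclins, kinases and E2F genes 3 rose and 3 fell among 13 in siEXOSC3 cells, where 16.7% of all genes rose and 15.7% fell, with Rb1, which encodes the retinoblastoma protein, at 0.62, limma adjusted p = 0.00821, and E2f7, a repressor of S phase genes, at -0.55, limma adjusted p = 0.00553. Leaving out siEXOSC3 replicate 2 gave 6 falls, and leaving out siEXOSC3 replicate 1 or scramble replicate 3 gave 1. In siDDX1 cells 5 of 13 fell and 1 rose (5.03 and 5.61% of all genes), and Ccne2 and Ccne1, the E cyclins of S phase entry, had the largest changes, -0.63, limma adjusted p = 0.0128, and -0.60, limma adjusted p = 0.0120. The siDDX1 count of falls was 0 without scramble replicate 1 or 3 and 3 without siDDX1 replicate 2, and the 1 rise was lost on leaving out any 1 library but siDDX1 replicate 3, without which 2 rose. The same E cyclins had log2 fold changes of 0.12, limma adjusted p = 0.371, and -0.14, limma adjusted p = 0.502 in siEXOSC3 cells. Of 24 replication helicase and clamp genes 24 had log2 fold changes below 0 in siEXOSC3 cells, with a median of -0.29, beside -0.30 in the 6 mitotic lists, and the difference between lists was not tested. Of these 24, 11 fell and 0 rose in siEXOSC3 cells and 5 fell in siDDX1 cells. Without 1 library the siEXOSC3 count was 3 (scramble replicate 1), 4 (siEXOSC3 replicate 1 or scramble replicate 3), 6 (scramble replicate 2), 7 (siEXOSC3 replicate 3) or 21 (siEXOSC3 replicate 2), and with the replicate block it was 4. In the order named, 5.17, 7.73, 7.15, 8.27, 13.6, 22.3 and 9.42% of all genes decreased in these fits. The siDDX1 count was 1 without scramble replicate 1 or 3, 2 without siDDX1 replicate 1 or 2, 14 without siDDX1 replicate 3 and 8 with the replicate block. There 0.522, 0.586, 1.96, 1.56, 15.4 and 7.28% of all genes decreased, in the order named. Gins1, a helicase subunit, had -0.87, limma adjusted p = 0.00716, and Gins3, of the same subunit ring, -0.51, limma adjusted p = 0.0166 in siEXOSC3 cells, while Cdc6, the helicase loader, had -0.76, limma adjusted p = 0.00751, and Rrm2, of the enzyme that makes deoxyribonucleotides, -0.55, limma adjusted p = 0.0152 in siDDX1 cells.

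Among 5 tested CDK inhibitors 2 rose and 1 fell in siEXOSC3 cells (16.7 and 15.7% of all genes), and 1 rose and 1 fell in siDDX1 cells (5.61 and 5.03%). The siEXOSC3 count of rises was 1 with the replicate block and without siEXOSC3 replicate 1, scramble replicate 1 or scramble replicate 3. Cdkn1a encodes p21, an inhibitor of CDKs that p53 induces. It stood at 73.6, 65.6 and 82.3 FPKM in siEXOSC3 and 41.6, 44.4 and 44.5 FPKM in scramble cells (log2 fold change 0.75, limma adjusted p = 0.00136), without overlap. In siDDX1 cells it stood at 51.1, 53.6 and 48.6 FPKM against 41.2, 44.01 and 43.97 FPKM (log2 fold change 0.24, limma adjusted p = 0.0451), again with no overlap, a call made in 5 of 15 alternative fits, against 15 of 15 in siEXOSC3 cells. It was lost without siDDX1 replicate 1 or 2 and without any 1 of the scramble replicates. Cdkn2c encodes p18, an inhibitor of CDK4 and CDK6, and stood at 3.73, 4.32 and 4.12 FPKM in siEXOSC3 and 6.47, 6.99 and 5.95 FPKM in scramble cells (log2 fold change -0.56, limma adjusted p = 0.00412). In siDDX1 cells its log2 fold change was -0.37, limma adjusted p = 0.0402, a call that was made in 8 of 15 alternative fits and lost without the same libraries.

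A few levels are uncertain because reads could be shared. Transcripts of Ccnb1, Cdc20, Plk1 and Prc1 have similar copies elsewhere in the genome, with at least 90% identity over at least 30% of the transcript. These are 5 stretches for Ccnb1 of 94.7 to 99.1% identity, and 1 each for Cdc20 (96.7% of the transcript at 92.8%), Plk1 (97.4% at 93.5%) and Prc1 (52.7% at 92.7%). Besides Kif20a, exons of Ube2c overlap those of Tnnc2 on the opposite strand over 22.8% of their length, and Tnnc2 had a mean of 0.214 FPKM in scramble and 0.101 FPKM in siEXOSC3 cells. Cdc20 shares 2.8% of its exonic bases with Elovl1, and 1.3% of those of Top2a are snoRNA sequence.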

How the data were processed

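Total RNA of 9 N2A cultures was depleted of rRNA, made into nondirectional libraries and sequenced as paired ends. The authors used TopHat2 2.1.0 to align to mm9 and then Cuffdiff 2.2.1, and the deposited values are FPKM per gene and library in 2 tables. The annotation and library scaling given to Cuffdiff are not given in the sources used here. The scramble columns of the tables differ by constant factors of 1.00793, 1.00782 and 1.01188, so tests stayed within a table. The siRNA of each library was taken from its title (its genotype label names the same knockdown, and the treatment label reads untreated throughout).

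From the FPKM, log2(FPKM + 1) was tested for genes whose mean over the 6 libraries of a table reached 1 FPKM, with limma 3.58.1 in R 4.3.3 (intensity trend, no covariates, two-sided). A gene was called at a Benjamini-Hochberg adjusted p-value under 0.05. The pseudocount makes the fold changes of low genes too small, and an exact permutation test of 3 against 3 libraries cannot go below p = 0.1. Standard errors and 95% intervals are those of the model. P-values measure the spread between plates of 1 line, which may be partly technical. The depth is known only relative to scramble replicate 1.

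The 34 members and the lists were chosen with earlier results of these data known. Values in every library are given for at most 12 called members per knockdown, by smallest adjusted p, and for Ccnb1, Cdk1, Plk1, Aurkb, Cdc20, Mad2l1, Top2a and Mki67 whatever they did. From each other cell cycle list at most 2 called genes per knockdown are named, by size of change, and Arpp19 and the 4 neuroblastoma markers that increased were named after their values were seen. Gene positions, overlaps and copies came from GENCODE vM1 on NCBIM37, and promoters from RefSeq on GRCm38.p6. Figures were drawn with matplotlib 3.10.9. DRIP-seq was not analysed here.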

Additional observations from a re-analysis of the deposited data

How the results depend on the processing

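Alternatives were a pseudocount of 0.1, no filter, a filter at 5 FPKM, quantile normalization, median centring, scaling to the FPKM total without Rmrp, no intensity trend, a replicate block, an adjusted p-value under 0.01 and leaving out each library, and, chosen after seeing the data, GC content and transcript length regressed out of each library by loess (span 0.3). In siEXOSC3 cells the members that decreased were 11 at an adjusted p-value under 0.01 and 14 to 32 without 1 library, and between 21 and 29 in the other settings. The share of all genes that decreased was 4.27% at an adjusted p-value under 0.01, 5.17 to 22.3% without 1 library and 7.63 to 19.3% in the other settings. In siDDX1 cells they were 0 at an adjusted p-value under 0.01, 4 with the trend removed, 12 with the scaling without Rmrp and 0 to 10 without 1 library, beside shares of all genes of 0.747, 6.28, 14.5 and 0.522 to 15.4%. In that scaling the median of the siDDX1 members was -0.31 and that of all genes -0.15. Over the fits without 1 library the median of the members ran from -0.50 to -0.32 in siEXOSC3 and from -0.17 to -0.06 in siDDX1 cells. Members increased were 0 in every setting.

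The replicate numbers were not taken to pair the samples, since no label says so and not every pair was correlated. The deviations of same-numbered libraries correlated at 0.0346, -0.31 and -0.126 in the siEXOSC3 table and at -0.0121, 0.379 and 0.372 in the siDDX1 table. Of the 3 siDDX1 pairs 2 thus did deviate together, but these values are not independent, since deviations within a group of 3 balance each other. The unlike-numbered pairs of replicates 2 and 3 mirrored them at -0.376 and -0.372. Whether the numbers mark a shared origin is not given in the sources used here. With the replicate block 26 members decreased in siEXOSC3 and 4 in siDDX1 cells, Plk1 among them, beside 9.42 and 7.28% of all genes.

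Signs turned only in members that had not passed. Without 1 library the log2 fold change of Spc24 in siEXOSC3 cells ran from -0.20 to 0.10. In siDDX1 cells it ran from -0.026 to 0.12 for Cdc20, from -0.026 to 0.028 for Bub3, from -0.063 to 0.073 for Top2a and from -0.12 to 0.0026 for Ccnb1. The scaling without Rmrp gave -0.11 for Cdk1, -0.077 for Incenp, -0.11 for Cdc20 and -0.15 for Top2a in siDDX1 cells. Quantile normalization gave -0.089 for Top2a, median centring 0.021 for Bub3, and the trend removal 7.2e-05 for Bub3 and 0.0102 for Ect2. The cause of these moves was not tested.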
